A study of Mus musculus with 12 samples.

Results

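Genes of DNA repair and of the damage checkpoint were followed in mouse embryonic stem cells exposed to hydrogen peroxide. The members were 36 named genes grouped by pathway, with 12 in strand break repair and its checkpoint, 12 in base excision and single-strand break repair, 1 in mismatch repair (Msh6), 10 in nucleotide excision repair and 1 in nucleotide supply (Rrm2b). By the annotation of the MG_U74Av2 array, whose probe sets are groups of short oligonucleotides, 35 of them had a probe set assigned to that gene alone, 47 probe sets in all; Atr had none and is not analysed here. The 35 genes stand among 8251 genes with such a probe set. A filter on dim probe sets left 41 of the 47, so that 34 member genes were tested among 6414 genes; the only probe set of Rad54l, a DNA translocase of homologous recombination, fell below it, at 3.76 to 27.9 signal units over the 12 arrays.

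Peroxide is a membrane-permeable oxidant that leaves oxidized bases, abasic sites and single-strand breaks in DNA, and double-strand breaks when such lesions lie close together or meet a replication fork. Base excision repair removes a damaged base with a glycosylase, cuts the abasic site, fills the gap and seals the nick, while nucleotide excision repair cuts out a short stretch of the damaged strand. Double-strand breaks are either held and rejoined by the Ku and DNA-PK proteins or resected and repaired by homologous recombination, which embryonic stem cells use readily because most of them are in S phase. The kinases ATM and ATR, with CHEK1 downstream of ATR, signal the damage to the cell cycle.

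All cells were clone C2 of the E14tg2a embryonic stem cell line, a single clone that carries targeted sites for the endonuclease I-SceI. The groups were phosphate-buffered saline alone (PBS, the controls, n = 3), 100 µM peroxide in PBS for 15 min (the low dose, n = 4) and 5 mM in PBS for 30 min (the high dose, n = 5). Treated cells were returned to maintenance medium for 1 h before RNA was taken. How long controls stayed in PBS, and whether they too were returned to medium, is not given in the sources used here. Any difference in this handling cannot be told apart from the effect of peroxide. The effect of concentration cannot be told apart from that of exposure time. No label says that replicates came from separate cultures; the p-values then measure the spread among these samples alone, which may be technical.

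Values are MAS5 signals, an intensity on a linear scale, and log2 changes were taken on the log2(signal + 10.1) scale, on which the changes of dim probe sets come out too small. Where a gene had several tested probe sets, the brightest stands for it. Across probe sets, which are not independent, r was 0.958 to 0.978 within a group and 0.921 to 0.957 between groups. The brightest probe set read 19733 to 34685 on high-dose arrays and 14976 to 24225 on low-dose arrays, against 7206 to 8904 on control arrays, which touches Ddb1 and Pcna, the members whose probe sets exceed 2000 signal units on average. All 9 embryonic stem cell markers were measured, with a summed signal of 29259 to 34766 at the high dose and 29792 to 35537 at the low dose, against 25199 to 28660 in the controls. Taken singly these markers were split. At the high dose 2 passed higher and 1 lower, with 4 fitted changes above 0 and 5 below. At the low dose 3 passed higher and 1 lower. The 13 measured markers of primitive endoderm, an extraembryonic lineage, summed to 1294 to 1464 at the high dose, against 6888 to 11203 in the controls, and to 10206 to 11117 at the low dose. Control replicate 1, at 11203, stood apart from the other controls, at 6888 and 7145. It also stood apart in the 3′ to 5′ signal ratio of Actb, a sign of RNA quality, which was 1.05 to 1.49 at the high dose and 1.11 to 1.49 at the low dose, against 1.995, 0.871 and 0.921 in control replicates 1, 2 and 3. Of the endoderm markers, 11 fell at the high dose and 5 rose at the low dose. Of 10 fibroblast (feeder) markers 5 were tested, summing to 672 to 910 at the high dose and 645 to 738 at the low dose, against 598 to 802 in the controls. In bulk RNA, fewer cells of a type and less RNA per cell cannot be told apart, and the part of cell makeup or RNA quality in the values below was not tested.

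After the low dose, 10 of the 34 repair genes passed the test, 5 higher and 5 lower. Ercc5, Msh6, Ogg1, Fen1 and Pcna rose by 1.35-fold to 1.83-fold, and Xpc, Xrcc6, Rpa1, Rad50 and Brca1 fell by 1.33-fold to 1.58-fold. Among all genes tested 24.6% passed in this comparison, 11.9% higher and 12.7% lower, so the count of repair genes lay near the background. The median log2 change over the 34 genes was -0.09, beside 0.04 over all genes. The count of 10 was 3 without control replicate 2, 5 without control replicate 3, and 5 or 6 when low-dose replicate 2 or 3 was left out.

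After the high dose, 4 of the 34 passed. Ercc1 rose 1.53-fold, and Ercc3, Xrcc6 and Ercc5 fell 1.81-fold, 1.49-fold and 1.44-fold. Among all genes tested 12.2% passed, 5.36% higher and 6.84% lower, so here too the share of repair genes was near it; 12 of the 34 (35.3%) had an unadjusted p under 0.05, beside 26.9% of all genes. The median log2 change was 0.03, beside -0.01 over all genes. The 5 high-dose arrays lay wholly below the 3 control arrays for 7 of the 34 genes (11.7% of all genes) and wholly above them for 3 (8.84%). The count of 4 was 1 without control replicate 2 and 2 without high-dose replicate 1.

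Set directly against the low dose, the high dose gave 5 differences. Xpc, Rpa1, Ddb1 and Rad50 were 1.41-fold to 1.58-fold higher at the high dose and Ercc5 was 2.11-fold lower. That is 14.7% of the 34 genes, beside 29.0% of all genes, of which 13.8% were higher and 15.2% lower. By unadjusted p under 0.05 the shares were alike, with 14 of the 34 (41.2%) beside 40.1% of all genes. The median log2 difference was 0.02, beside -0.04 over all genes, and without low-dose replicate 3 the count was 8.

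**Figure D1:**
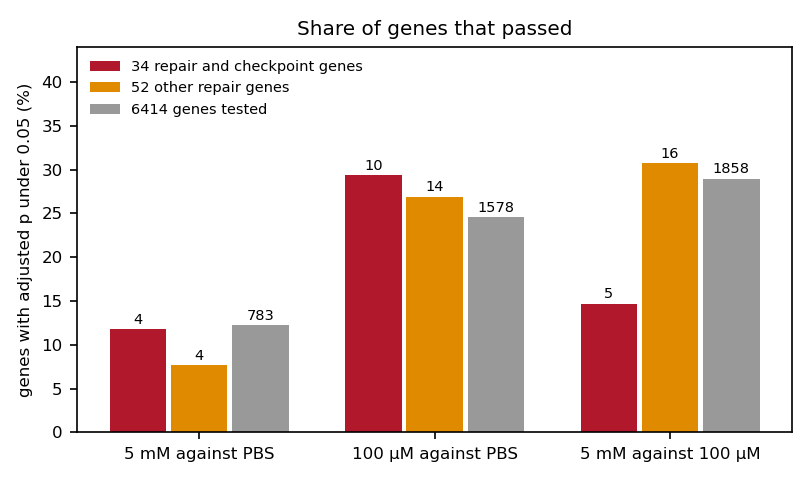
Share of genes with an adjusted p under 0.05 in each comparison, in percent, for the 34 repair and checkpoint genes, 52 other repair genes and all 6414 genes tested; the number above a bar is the count of genes. The repair genes stand near the grey bars against PBS (4 and 10 genes) and below the grey bar between the doses (5 genes).

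**Figure D2:**
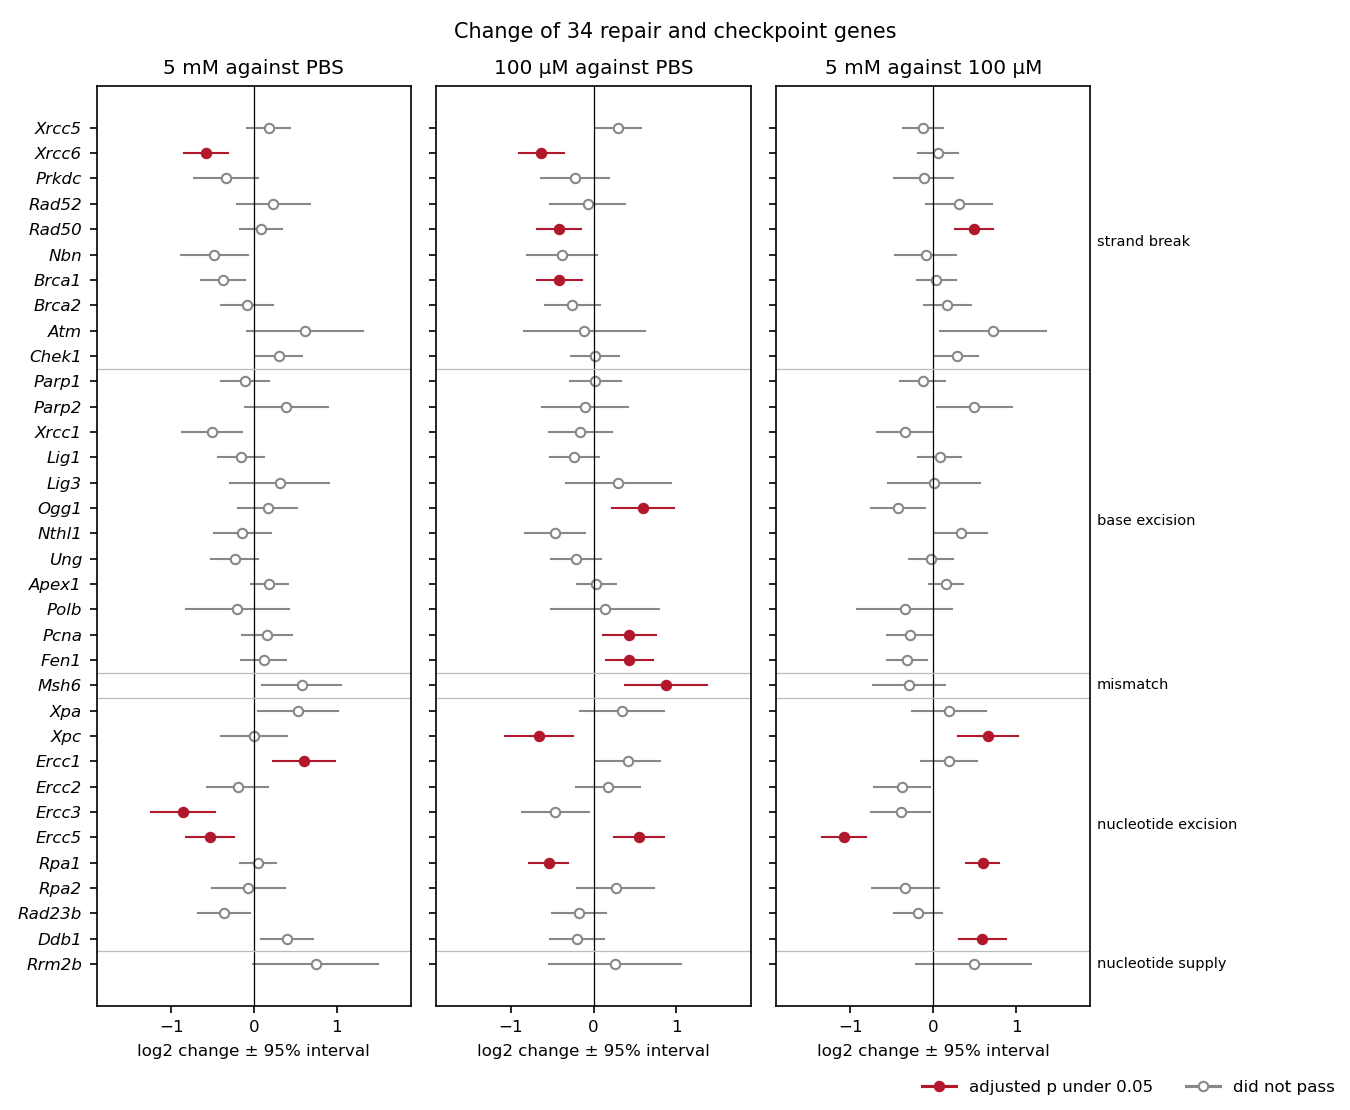
Fitted log2 change of each of the 34 genes with its 95% interval, by pathway, for 5 mM against PBS, 100 µM against PBS and 5 mM against 100 µM; filled red points passed the test. Ercc5 lies left of 0 at 5 mM, right of 0 at 100 µM, and furthest left between the doses.

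Promoter windows of 250 bases before the annotated start are shown for Xrcc6, which fell at both doses, for Xrcc5, which encodes the other subunit of the same dimer and did not pass in any comparison, and for Ercc5 and Rpa1, the members with the smallest adjusted p between the doses (RefSeq, GRCm38.p6; a window was matched for 29 of the 36 members). Capitals mark matches on either strand to CCAAT, a sequence bound by the factor NF-Y, to GGGCGG, bound by Sp1, or to TTTNNCGC. The last, in which N is any base, is a looser form of the sequence bound by E2F. No base lay in matches to more than 1 of these sequences. Xrcc6 is at chr15:82016119-82016368 on the + strand, Xrcc5 at chr1:72307171-72307420 (+), Ercc5 at chr1:44147494-44147743 (+) and Rpa1 at chr11:75348384-75348633 (-), each written 5′ to 3′ on the strand of its gene.
Xrcc6: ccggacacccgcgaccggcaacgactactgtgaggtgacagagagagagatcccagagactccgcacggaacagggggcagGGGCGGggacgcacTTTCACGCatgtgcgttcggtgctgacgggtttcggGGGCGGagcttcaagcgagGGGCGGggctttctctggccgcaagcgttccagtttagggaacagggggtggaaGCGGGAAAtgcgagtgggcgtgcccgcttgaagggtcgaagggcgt
Xrcc5: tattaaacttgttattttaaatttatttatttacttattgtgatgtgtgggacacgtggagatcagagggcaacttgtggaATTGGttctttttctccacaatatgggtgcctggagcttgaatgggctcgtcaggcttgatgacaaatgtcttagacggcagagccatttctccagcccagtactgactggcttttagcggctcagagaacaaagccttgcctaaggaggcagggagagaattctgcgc
Ercc5: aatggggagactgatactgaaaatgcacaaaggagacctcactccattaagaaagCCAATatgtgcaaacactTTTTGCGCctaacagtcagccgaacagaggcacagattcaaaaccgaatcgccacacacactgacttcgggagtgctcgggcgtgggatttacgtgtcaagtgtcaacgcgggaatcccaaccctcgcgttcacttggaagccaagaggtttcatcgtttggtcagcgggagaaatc
Rpa1: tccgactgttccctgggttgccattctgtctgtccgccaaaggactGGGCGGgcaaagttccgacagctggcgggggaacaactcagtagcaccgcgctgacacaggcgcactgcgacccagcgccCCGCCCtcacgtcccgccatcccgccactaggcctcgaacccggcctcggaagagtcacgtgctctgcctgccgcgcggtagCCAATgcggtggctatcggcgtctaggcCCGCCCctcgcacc

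In these windows Xrcc6 held GGGCGG 3 times and TTTNNCGC 2 times, and Xrcc5 held only CCAAT, 1 time. Ercc5 held CCAAT and TTTNNCGC 1 time each, beginning 195 and 177 bases before the start, and Rpa1 held CCAAT 1 time and GGGCGG 3 times. The GC content was 65.2% for Xrcc6, 44.8% for Xrcc5, 50% for Ercc5 and 68.0% for Rpa1, beside a median of 52.4% over all windows. Of the 29 members with a window, 55.2% held CCAAT, 65.5% GGGCGG and 13.8% TTTNNCGC in at least 1 window, beside 37.5%, 35.4% and 4.9% of 27025 genes. These 27025 are all genes with a window, and are not limited to the genes on the array or to those tested. A match is a description of these letters and not a binding site.

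Of the 10 strand break genes tested, 3 fell and none rose after the low dose, and 1 fell after the high dose. Of all genes 12.7% fell and 11.9% rose after the low dose, and 6.84% fell after the high dose. The Ku dimer binds free DNA ends and recruits the kinase subunit of DNA-PK. Xrcc6, its smaller subunit, read 313, 323, 303 and 281 on the low-dose arrays, against 473, 490 and 471 on the control arrays. The 5 high-dose arrays read 306, 311, 371, 334 and 271. Every treated array was below every control array, and the dose groups overlapped. The log2 change was -0.63 ± 0.13 (SE) after the low dose (limma adjusted p = 0.00263) and -0.58 ± 0.12 after the high dose (adjusted p = 0.00676), and 0.06 between the high and the low dose, with a 95% interval of -0.19 to 0.30. The larger subunit gene Xrcc5 averaged 796 ± 35.7 at the high dose (SD, n = 5), 868 ± 48.0 at the low dose (n = 4) and 712 ± 146 in the controls (n = 3). Its groups overlapped and it did not pass, with log2 changes of 0.30 after the low dose (95% interval 0.03 to 0.58; adjusted p = 0.105) and 0.18 after the high dose (-0.09 to 0.44). Without control replicate 1 its low-dose change was 0.45 and passed (adjusted p = 0.0158). Prkdc, the kinase subunit, did not pass at either dose, with -0.22 for the low dose and -0.34 for the high dose.

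The MRE11-RAD50-NBN complex tethers and trims broken ends and activates ATM. Rad50 read 342, 287, 362 and 286 on the low-dose arrays, against 435, 442 and 404 on the control arrays. The high-dose arrays read 466, 461, 439, 473 and 423, so that only the low-dose arrays stood apart, below both other groups. The log2 change was -0.42 ± 0.12 after the low dose (adjusted p = 0.0238) and 0.08 ± 0.12 after the high dose (adjusted p = 0.711), and the high dose was 0.50 ± 0.11 above the low dose (adjusted p = 0.00298). The low-dose call was lost without control replicate 1 or 2 or without low-dose replicate 2 or 4 (adjusted p = 0.0521 to 0.0828), and the difference between doses was kept under every alternative tried. Nbn read 151, 91.4, 87.1 and 92.2 on the low-dose arrays, against 140, 149 and 124 on the control arrays, and 82.5 to 111 on the high-dose arrays. It did not pass, at -0.38 ± 0.20 for the low dose and -0.48 ± 0.19 for the high dose; without low-dose replicate 1, its high array, the low-dose change was -0.56 and passed (adjusted p = 0.0365).

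Brca1, which acts in homologous recombination and in checkpoint signalling, read 367, 298, 320 and 299 on the low-dose arrays, against 397, 452 and 441 on the control arrays. At the high dose it read 293, 313, 353, 362 and 329, and all treated arrays were below all control arrays. The log2 change of -0.41 ± 0.13 at the low dose passed (adjusted p = 0.0292), a call lost without control replicate 2 or 3 or low-dose replicate 2, 3 or 4 (adjusted p = 0.0537 to 0.105). At the high dose the value was -0.38 ± 0.12 (adjusted p = 0.0616), and the doses differed by 0.04 (95% interval -0.20 to 0.28). Brca2, which acts in homologous recombination, had values of -0.26 after the low dose and -0.09 after the high dose, and Rad52, an annealing protein, had -0.07 and 0.24; neither passed.

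Of the checkpoint kinases, Chek1 averaged 823 ± 70.6 at the high dose (SD, n = 5), 680 ± 117 at the low dose (n = 4) and 665 ± 35.0 in the controls (n = 3). Its high-dose arrays lay above all control arrays, yet the log2 change of 0.30 ± 0.13 did not pass (adjusted p = 0.159). Atm was dim and variable. It read 88.9, 126, 87.5, 149 and 151 on the high-dose arrays, against 47.5, 93.1 and 87.3 on the control arrays, and 61.6, 30.9, 74.1 and 133 on the low-dose arrays. Its value between the doses, 0.72 ± 0.30, did not pass (adjusted p = 0.0887); without low-dose replicate 4 it was 1.02 and passed (adjusted p = 0.0149).

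In base excision repair, 3 of 12 genes rose at the low dose, none fell, and none passed at the high dose in limma, where 1 had an unadjusted p under 0.05. The 3 of 12 compare with 24.6% of all genes called after the low dose, 11.9% higher, and 12.2% were called after the high dose. Ogg1, the glycosylase that removes oxidized guanine, read 137, 121, 130 and 140 on the low-dose arrays, against 92.7, 74.6 and 84.5 on the control arrays. The high-dose arrays read 75.7, 111, 109, 95.3 and 89.2, and the low-dose arrays lay above all others. The rise at the low dose was 1.51-fold, a log2 change of 0.60 ± 0.18 (adjusted p = 0.0222), lost without control replicate 2 (0.0906) or 3 (0.0563). It was also lost after quantile normalization (0.45, adjusted p = 0.076) and after median scaling (0.42, adjusted p = 0.11). The difference of the high dose from the low dose was -0.43 ± 0.15 (adjusted p = 0.0505), and the high dose against the controls gave 0.17 (95% interval -0.19 to 0.53).

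The other glycosylase genes did not pass. Nthl1, which removes oxidized pyrimidines, read 163, 166, 173 and 149 at the low dose, against 211, 198 and 287 in the controls. All low-dose arrays were below all control arrays, but the log2 change of -0.47 ± 0.17 did not pass (adjusted p = 0.0552; it passed after quantile normalization, at 0.0405, and after median scaling, at 0.0106). Ung, which removes uracil, had values of -0.21 after the low dose and -0.23 after the high dose and did not pass. The dimmer probe set of Ung gave 0.01 and 0.14 and did not pass either. Apex1, the main endonuclease of abasic sites, had values of 0.04 after the low dose (95% interval -0.20 to 0.27) and 0.19 after the high dose (-0.03 to 0.41).

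Downstream of the incision, Fen1 cuts the displaced flap of long-patch repair and Pcna is the sliding clamp that holds the polymerase, both also parts of the replication machinery. Fen1 read 642, 805, 726 and 700 on the low-dose arrays, against 500, 561 and 523 on the control arrays, without overlap. The log2 change was 0.43 ± 0.13 (adjusted p = 0.0255), lost without control replicate 1 or 3 or low-dose replicate 2 or 3 (adjusted p = 0.0517 to 0.0725). It was 0.25 after median scaling (adjusted p = 0.277) and 0.47 after quantile normalization, which passed (adjusted p = 0.0141). At the high dose Fen1 read 510 to 707 and its value of 0.12 did not pass. Pcna read 3418, 3927, 4422 and 3138 on the low-dose arrays, against 3288, 2231 and 2786 on the control arrays, and these groups overlapped. Its log2 change of 0.43 ± 0.15 passed narrowly (adjusted p = 0.0452), but 9 of the 12 fits that each left out 1 array lost the call, and without control replicate 2 the change was 0.29 (adjusted p = 0.229). After median scaling it was 0.24 (adjusted p = 0.404), and after quantile normalization 0.42, which passed (adjusted p = 0.0253). The part of the bright end of the scale in the Pcna value was not tested.

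The strand break sensors Parp1 and Parp2, which mark nicks with poly(ADP-ribose), did not pass. Parp1 had values of 0.02 after the low dose and -0.11 after the high dose. Parp2 read 1708, 1424, 1110, 857 and 841 on the high-dose arrays, against 1028, 1003 and 633 on the control arrays, a spread that covers its value of 0.39 ± 0.23 (adjusted p = 0.307). Xrcc1, the scaffold that gathers the polymerase and ligase at a nick, read 171, 184, 174, 168 and 180 at the high dose, against 197, 300 and 273 in the controls, all lower. The value of -0.51 ± 0.17 did not pass (adjusted p = 0.0696), and without control replicate 1 it was -0.68 and passed (adjusted p = 0.0238); the dimmer probe set of the gene gave 0.03.

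Lig3, the ligase that partners XRCC1, gave 0.31 at the high dose by its brighter probe set and -0.53 by the other, and neither passed. Between the doses the second probe set was lower at the high dose, at -0.63 (adjusted p = 0.024), whereas the brighter one gave 0.01 (95% interval -0.54 to 0.56), so the 2 probe sets of this gene disagree. The repair polymerase gene Polb and the replicative ligase gene Lig1 had values of 0.14 and -0.24 at the low dose and -0.20 and -0.16 at the high dose, and did not pass.

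Msh6, which acts in mismatch recognition, was dim in all groups. It read 74.1, 70.7, 95.8 and 61.7 on the low-dose arrays, against 37.9, 26.9 and 45.8 on the control arrays, without overlap. The rise was 1.83-fold, a log2 change of 0.87 ± 0.23 (adjusted p = 0.0137), the largest among the 10 genes called at the low dose, and was 0.71 without control replicate 2 (adjusted p = 0.0719). Its high-dose values were 58.9, 74.0, 44.5, 52.2 and 69.4, and the value of 0.58 ± 0.22 did not pass (adjusted p = 0.107). The doses differed by -0.30 (95% interval -0.73 to 0.14).

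**Figure D3:**
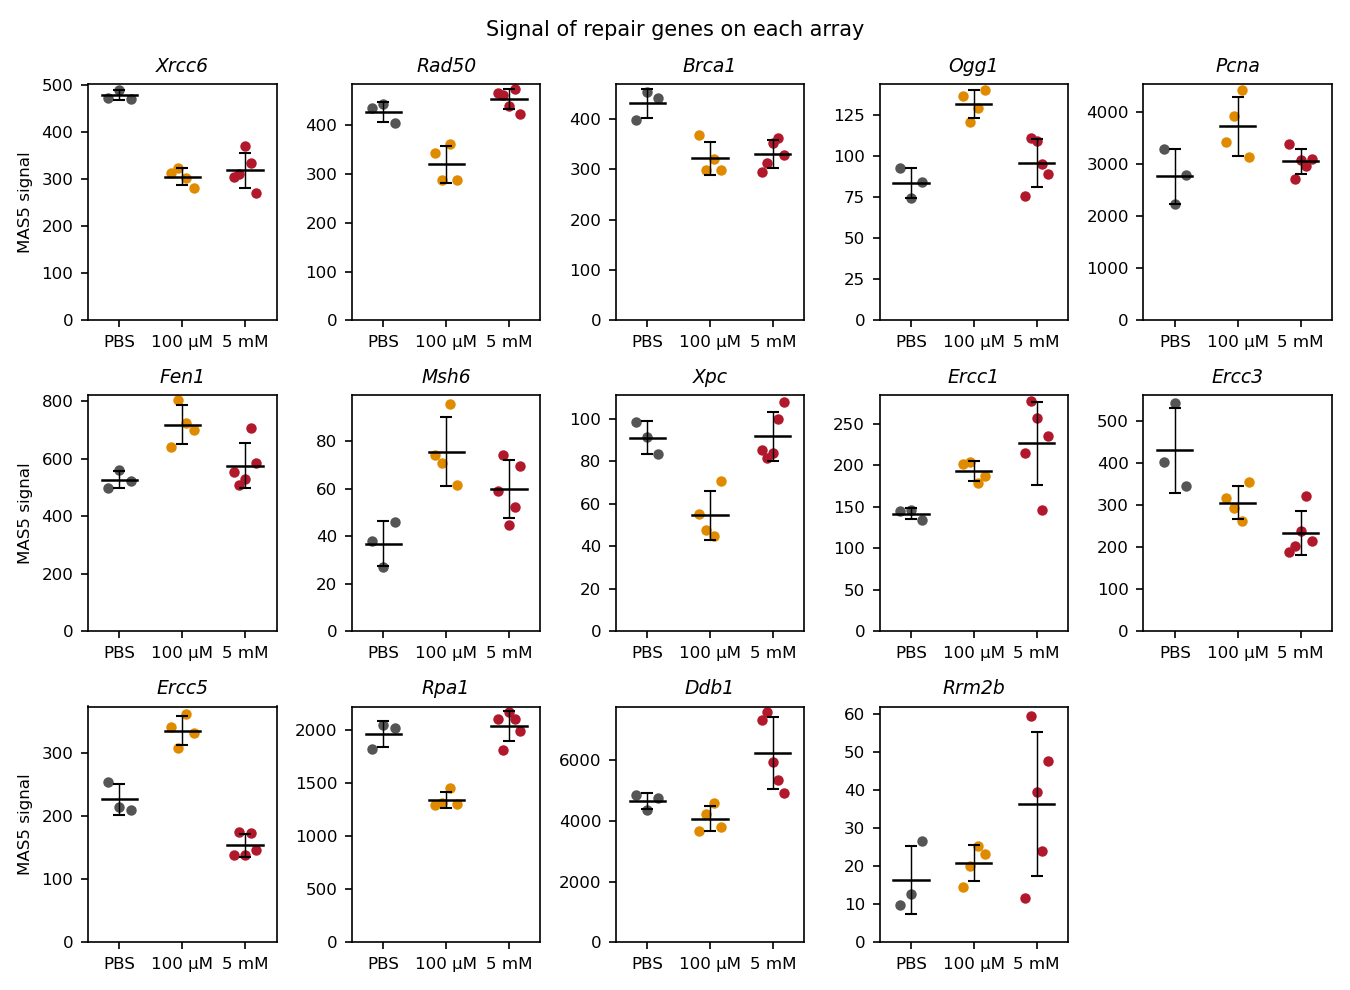
MAS5 signal on every array (points), with the mean and SD per group, for the 13 genes that passed in any comparison and for Rrm2b; groups run from PBS (n = 3) over 100 µM (n = 4) to 5 mM (n = 5). Xrcc6 is lower at both doses, Rad50, Xpc and Rpa1 are low at 100 µM only, and Ercc5 is high at 100 µM and low at 5 mM.

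Nucleotide excision repair held 3 of the 4 genes called at the high dose and 4 of the 5 called between the doses, among 10 tested, beside 12.2% of all genes called at the high dose and 29.0% between the doses. At the low dose 3 of the 10 passed (30.0%, beside 24.6% of all genes). Of 9 other nucleotide excision genes tested, none passed at the high dose, 2 at the low dose and 4 between the doses. With 10 and 9 genes these counts are small, and whether they differ from the share of all genes was not tested. Ercc5 encodes XPG, the nuclease that cuts on the far side of the lesion. It read 341, 307, 362 and 331 on the low-dose arrays, against 254, 215 and 210 on the control arrays. The high-dose arrays read 138, 174, 138, 173 and 146, so the 3 groups did not overlap. Ercc5 rose after the low dose (log2 change 0.55 ± 0.14, adjusted p = 0.0124) and fell after the high dose (-0.53 ± 0.14, adjusted p = 0.0218). Between the doses the difference was -1.08 ± 0.13 (adjusted p = 1.4e-05), kept under every alternative tried. The rise was lost without control replicate 2 or 3 (adjusted p = 0.0504 and 0.0518) and was 0.37 after median scaling (adjusted p = 0.112). After quantile normalization the rise was 0.55 and passed (adjusted p = 0.013). The fall was lost without control replicate 1 or 2 or high-dose replicate 1 (adjusted p = 0.0509 to 0.0721).

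Ercc1, partner of the nuclease that makes the opposite cut, read 215, 277, 257, 147 and 236 on the high-dose arrays, against 145, 146 and 134 on the control arrays. High-dose replicate 4, at 147, lay close to the controls. The log2 change of 0.61 ± 0.18 passed (adjusted p = 0.034), but it did not pass without any 1 of the 3 control arrays or of high-dose replicates 1, 2, 3 or 5 (adjusted p = 0.0596 to 0.113). At the low dose the arrays read 202, 204, 179 and 187, above all controls, and the value of 0.42 ± 0.18 did not pass (adjusted p = 0.111).

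TFIIH opens the DNA around the lesion and also serves transcription initiation. Ercc3, its XPB translocase, read 189, 203, 238, 321 and 214 on the high-dose arrays, against 403, 543 and 345 on the control arrays, all lower. The fall was 1.81-fold, a log2 change of -0.86 ± 0.18 (adjusted p = 0.0065), the largest at the high dose among the 34 genes; it was -0.68 without control replicate 2, which read 543, and did not pass (adjusted p = 0.0565). The low-dose arrays read 316, 293, 262 and 354, overlapping both other groups, and the value of -0.46 ± 0.19 did not pass (adjusted p = 0.0897). Ercc2, the XPD helicase of the same complex, had values of 0.18 after the low dose and -0.20 after the high dose and did not pass. Its dimmer probe set gave 0.14 and 0.20 and did not pass either.

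Of the lesion recognition genes, Xpc read 55.2, 47.6, 45.1 and 70.7 on the low-dose arrays, against 98.8, 91.5 and 83.4 on the control arrays. High-dose values were 85.3, 81.5, 83.9, 100.2 and 108, so only the low-dose arrays stood apart. The fall at the low dose was 1.58-fold (log2 change -0.66 ± 0.20, adjusted p = 0.0227), lost without control replicate 1 or 2 or low-dose replicate 2 or 3 (adjusted p = 0.0538 to 0.0668). The high dose gave 0.00 against the controls (95% interval -0.39 to 0.40) and 0.66 ± 0.17 above the low dose (adjusted p = 0.00878), a difference kept under every alternative tried. Rad23b, which stabilizes XPC, had values of -0.18 after the low dose and -0.36 after the high dose and did not pass. Its dimmer probe set gave -0.10 and -0.04 and did not pass. Xpa, which verifies the lesion, had 0.34 after the low dose and 0.54 after the high dose and did not pass either.

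Ddb1, an adaptor of the CUL4 ubiquitin ligase and part of the complex that finds ultraviolet lesions, was the brightest member by its main probe set. It read 7326, 7561, 5922, 5347 and 4911 on the high-dose arrays, against 3668, 4229, 4568 and 3797 on the low-dose arrays, without overlap. The difference was 0.60 ± 0.14 (adjusted p = 0.00385), and 0.35 after quantile normalization (adjusted p = 0.0105). The controls read 4863, 4343 and 4747, and the high dose gave 0.40 ± 0.15 against them (adjusted p = 0.0948), a value of -0.24 after quantile normalization. The low dose gave -0.20 against the controls, and -0.59 after quantile normalization, which passed (adjusted p = 0.00107). The second bright probe set gave 0.18 between the doses (95% interval -0.07 to 0.44) and did not pass.

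Replication protein A coats single-stranded DNA in repair and replication. Rpa1, its large subunit, read 1298, 1314, 1458 and 1304 on the low-dose arrays, against 1822, 2051 and 2020 on the control arrays. The high-dose arrays read 2103, 1816, 2171, 2107 and 1989, overlapping the controls, and the low-dose arrays were below all others. The log2 change was -0.54 ± 0.11 after the low dose (adjusted p = 0.00241) and 0.05 ± 0.11 after the high dose (95% interval -0.17 to 0.27), and the high dose was 0.60 ± 0.10 above the low dose (adjusted p = 2.6e-04). The fall at the low dose and the difference between doses were kept under every alternative tried. Rpa2, the middle subunit, had values of 0.27 after the low dose and -0.07 after the high dose and did not pass.

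Rrm2b, the ribonucleotide reductase subunit that p53 induces, was near the lower limit of the scale. It read 11.6 to 59.5 on the high-dose arrays, with a median of 39.6, against 9.84, 12.9 and 26.7 on the control arrays, and 14.7, 20.2, 25.4 and 23.2 on the low-dose arrays. The groups overlapped, and neither the value of 0.75 ± 0.36 at the high dose (adjusted p = 0.195) nor that of 0.26 ± 0.37 at the low dose passed. Other p53 targets did move at the low dose. Mdm2, the ubiquitin ligase that restrains p53, read 2036, 2832, 2594 and 1770 at the low dose, against 832, 690 and 551 in the controls, a rise of 3.30-fold (adjusted p = 1.0e-04). Ccng1 rose 2.96-fold and the cell cycle inhibitor gene Cdkn1a 1.97-fold. None of these 3 passed at the high dose, where their values were -0.40, -0.30 and -0.05, and all 3 were lower at the high than at the low dose.

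A list of 94 other repair and checkpoint genes held 52 that were tested. After the low dose 14 of them passed, 3 higher and 11 lower, or 26.9% beside the 24.6% of all genes; after the high dose 4 passed, 1 higher and 3 lower (7.69% beside 12.2%), and between the doses 16, of which 11 were higher and 5 lower at the high dose (30.8% beside 29.0%). The largest falls at the low dose were those of Trp53bp1 (log2 change -0.89 ± 0.19), a scaffold at double-strand breaks, Hus1 (-0.72 ± 0.20), part of the checkpoint clamp, and Pold1 (-0.71 ± 0.18), the catalytic subunit of a replicative polymerase, whose dimmer probe set gave 0.61 and did not pass. Msh3 (0.62), a mismatch repair gene, Parg (0.52), which removes poly(ADP-ribose), and Rpa3 (0.44) rose; Parg was at the threshold and lost its call in 17 of 25 alternatives, and Rpa3 in 7. At the high dose Rad9a (1.45), another part of the checkpoint clamp, rose, with 36.2 to 101 signal units on the high-dose arrays against 5.55 to 46.7 on the control arrays, and Rad17 (-0.61), the loader of that clamp, Topbp1 (-0.57), an activator of ATR, and Rrm2 (-0.47), a ribonucleotide reductase subunit, fell. Between the doses Trp53bp1 (0.93), the helicase gene Wrn (0.79) and Bard1 (0.74), the partner of BRCA1, were higher at the high dose. Cdk7 (-0.59), the kinase of TFIIH, the cohesin gene Rad21 (-0.52) and the mitotic inhibitor gene Wee1 (-0.49) were lower. Hus1 gave 0.47 between the doses by its brightest probe set and did not pass (adjusted p = 0.0588). Its dimmer probe sets gave 1.66 and 1.03 there and passed (adjusted p = 0.0212 and 0.0211). At the high dose these gave 1.13 and 0.37 against the controls, beside -0.25 by the brightest, and none passed. Many of these calls were lost under some alternatives: Rad17 and Wee1 in 11 of 25 each, Topbp1 in 8 of 25, Rad9a and Rad21 in 8 of 24 each, Bard1 in 6 of 24 and Cdk7 in 4 of 25. Without control replicate 2 the value of Rad9a was 1.04 (adjusted p = 0.192), and Trp53bp1, Wrn and Rrm2 kept the calls named here under every alternative tried.

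Subunits of one complex did not all follow each other. The genes named in this paragraph beyond those above were chosen after their values were seen. Mre11a read 256, 273, 281 and 235 on the low-dose arrays, against 516, 381 and 350 on the control arrays, a log2 change of -0.63 ± 0.15 (adjusted p = 0.0063) that stands beside the fall of Rad50; its high-dose arrays read 356 to 449. In replication protein A, Rpa3 read 522, 574, 552 and 480 at the low dose, against 381, 385 and 401 in the controls, and so rose where Rpa1 fell. Of the clamp loader, Rfc5 (-0.60) and Rfc2 (-0.65) fell at the low dose, Rfc4 (-0.42, adjusted p = 0.0519), Rfc1 (-0.19) and Rfc3 (0.15) did not pass, and a dimmer probe set of Rfc5 gave 0.50 and did not pass. In TFIIH, Gtf2h4 fell at the low dose (-0.61, adjusted p = 0.00458), and had a value of 0.04 at the high dose, where Ercc3 fell. At the low dose Ercc3 had the same direction, at -0.46 (95% interval -0.86 to -0.06), and did not pass. Rrm1, the large subunit of ribonucleotide reductase, fell at the low dose (-0.49, adjusted p = 0.00805) and gave 0.04 at the high dose, whereas Rrm2 gave -0.02 after the low dose and fell after the high dose. Nudt1, which clears oxidized guanine nucleotides from the pool, read 388, 395, 385 and 363 at the low dose, against 458, 617 and 678 in the controls, a log2 change of -0.58 (adjusted p = 0.0201), while Ogg1 rose.

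**Figure D4:**
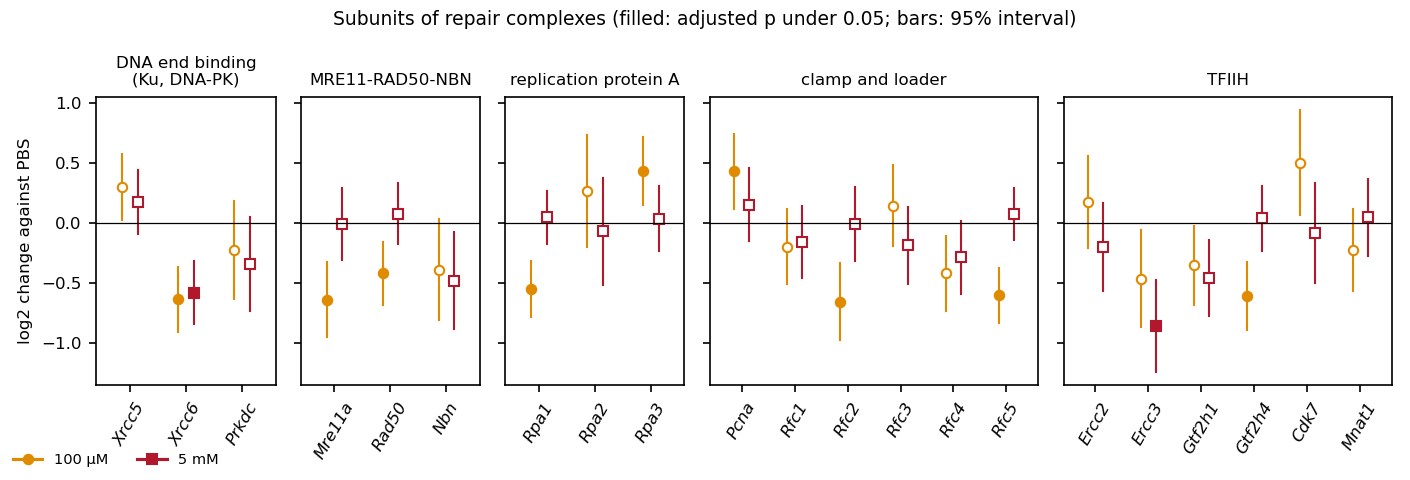
Log2 change against PBS with its 95% interval for the measured subunits of 5 assemblies, at 100 µM (circles) and 5 mM (squares); filled symbols passed the test. Rpa1 (-0.54) and Rpa3 (0.44) lie on opposite sides of 0 at 100 µM, and both 5 mM squares of these genes lie near 0.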

How the data were processed

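RNA of 12 samples (5 high dose, 4 low dose, 3 control) was read on single-colour MG_U74Av2 arrays. The authors deposited 1 intensity per probe set and array on a linear scale, made with MAS5 per the submitters' processing notes; neither its version nor the scaling target is given in the sources used here, and detection calls were not used. Trimmed means were 250.14 to 250.19, so the arrays had been scaled alike and were not scaled again. From the intensities, log2(signal + 10.1) was taken, the offset being the 20th percentile of all values; control probe sets and those with a mean log2 value below the 30th percentile were left out. A mean per group was fitted to the 12 arrays (limma 3.58.1, R 4.3.3; lmFit and eBayes with trend, two-sided), with Benjamini-Hochberg adjustment over 8695 probe sets and a threshold of 0.05. Genes were assigned by the platform annotation, with 10833 of 12488 probe sets assigned to 1 symbol, 396 to several and 1193 to none. For 10817 of the 10833 the annotation's gene number was found in RefSeq, and the RefSeq symbol was used. The number of arrays limits the precision.

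The members and lists were chosen with earlier results of these data known. Members past the threshold, and the member with the largest change in a pathway without one, are given array by array. Of the other repair genes the text names those with the largest changes past the threshold, 3 at most in each direction and comparison, and always Cdkn1a, Mdm2 and Ccng1; further subunits of complexes and Nudt1 were named after their values were seen. Equal replicate numbers were not treated as pairs, as no label says that they mark pairs. Deviations from the group means of same-numbered arrays correlated at r = -0.178 to 0.148 over 10 pairs, 2 of them above 0.1. Differently numbered arrays gave r = -0.162 to 0.177, so these correlations cannot decide whether samples were paired. The 25 alternatives covered normalization, offset, filter, probe set choice, variance model, array weights, samples in the fit, a replicate block and leaving out each array. The fit was tested on simulated data with changes of known size. Of log2 changes of 1 it recovered 62% to 68%, and of log2 changes of 2 it recovered 93% to 99%. It made 6 or 7 false calls per comparison, and smaller changes were not simulated. Each simulation changed only 100 probe sets by each size among 8695, with independent noise. In the real data 1018 probe sets were called at the high dose, 2087 at the low dose and 2385 between the doses. The adjustment depends on how many probe sets change, so neither the recovery nor the false calls carry over to these data. No genome build belongs to the array values, so probe sets have no coordinates here.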

Additional observations from a re-analysis of the deposited data

Results flagged for a closer look

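Among 68 groups of 4 or 5 arrays examined over the members, 3 held 1 array far from the others by Dixon's criterion, and chance marks about 1 group in 20. In Nbn, low-dose replicate 1 read 151.4, against 87.1 to 92.2 on the other low-dose arrays, a gap of 0.9 of the group's range. In Rpa1, low-dose replicate 3 read 1458, against 1298 to 1314, a gap of 0.895 of the range. In Chek1, high-dose replicate 2 read 701.7, against 831 to 879 on the other high-dose arrays, a gap of 0.751 of the range. Different arrays stood apart in the 3 genes.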

How the results depend on the processing

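Of 19 calls among the members, all kept their sign and 7 kept the call under every alternative that gave them a value, 25 for each but Ddb1 (24, since the fit without bright probe sets leaves it out): Xrcc6 and Rpa1 at the low dose, and Rad50, Xpc, Ercc5, Rpa1 and Ddb1 between the doses. At the high dose the 1018 probe sets called became 1655 with array weights, and 490 to 1012 when 1 array was left out; the 4 member genes became 9 with array weights and 1 to 5 with 1 array left out. The median of 0.03 became -0.066 with the filter at the 50th percentile. At the low dose the 10 member genes became 6 when only the groups compared were fitted and 3 to 11 with 1 array left out. The median of -0.09 became -0.26 with a common median, a scaling that moved all probe sets by -0.17, and lay between -0.107 and -0.007 with 1 array left out. Between the doses the 5 member genes became 8 after quantile normalization and 5 to 8 with 1 array left out, and the median of 0.02 became 0.13 with a common median, which moved all probe sets by 0.11. No label says that equal replicate numbers pair the samples. With that number as a block, 597 probe sets and 2 member genes were called at the high dose, and the low-dose median was -0.004. The cause was not tested.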
